A study of Mus musculus with 8 samples.

Results

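The 10 genes described here encode the uptake of glucose, steps of its breakdown to pyruvate and lactate, and the export of lactate: Slc2a1, Hk1, Hk2, Pfkp, Pkm, Ldha, Ldhb, Pdk1, Slc16a1 and Slc16a3. They were taken by symbol from a table of 55487 mouse genes, in which all 10 were found, and all 10 had enough counts to be among the 15056 genes tested. Polyadenylated RNA of sciatic nerve was sequenced at postnatal day 6, when Schwann cells sort and myelinate axons. Control mice (Ctrl, 4 libraries) were CNP+/+ Cdk7lox/lox, and conditional knockout mice (CNP-Cdk7cKO, 4 libraries) were CNPcre/+ Cdk7lox/lox. All animals thus carried floxed Cdk7 alleles, and the groups differed in the Cre allele at the Cnp locus, a gene of myelin-forming glia through which Cdk7, the kinase subunit of the transcription factor TFIIH, is deleted in Schwann cells. The knockout libraries therefore also carry an altered Cnp allele, and the nerve holds endothelial, perineurial, fibroblast and immune cells in which this Cre is not meant to act. Whether every library is a different animal is not stated in the labels, and p-values thus measure the spread between these libraries, which may be technical.

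Glycolysis splits glucose to pyruvate in the cytosol and yields ATP and reducing power without oxygen. Lactate dehydrogenase interconverts pyruvate and lactate, and monocarboxylate transporters carry lactate with a proton across the cell membrane. Glia use this route to pass lactate to the axons they wrap, which oxidise it, and in the nerve the monocarboxylate transporter MCT1 and the glucose transporter GLUT1 are also known from the perineurium, the cellular sheath around nerve fascicles.

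None of the 10 genes passed the test between CNP-Cdk7cKO and Ctrl nerves, and the intervals of most of them were narrow. In the quasi-likelihood test of edgeR, adjusted by Benjamini-Hochberg over all 15056 genes, 0 of 10 were higher, against 5.07% of all tested genes, and 0 were lower, against 6.60%; in either direction the share over all tested genes was 11.7%. At an unadjusted p under 0.05 the count was also 0 of 10 by edgeR and by DESeq2, and 1 by limma-voom, and both of these tools called 0 after adjustment. The smallest adjusted p of the 10 was 0.238 by edgeR's quasi-likelihood test. The median log2 fold change was 0.01, with a range from -0.32 to 0.07 and a median size of 0.04 regardless of sign, against a median of 0.0031 and a median size of 0.12 over all tested genes. The values of the groups overlapped for all 10 genes, whereas they did not overlap for 18.8% of all tested genes. The 95% interval of the fold change lay within 2-fold in either direction for all 10 genes and within 1.5-fold for 9 of them, the exception being Slc16a3. The distance from the estimate to either end of the interval was between 0.09 and 0.51 on the log2 scale.

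**Figure D1:**
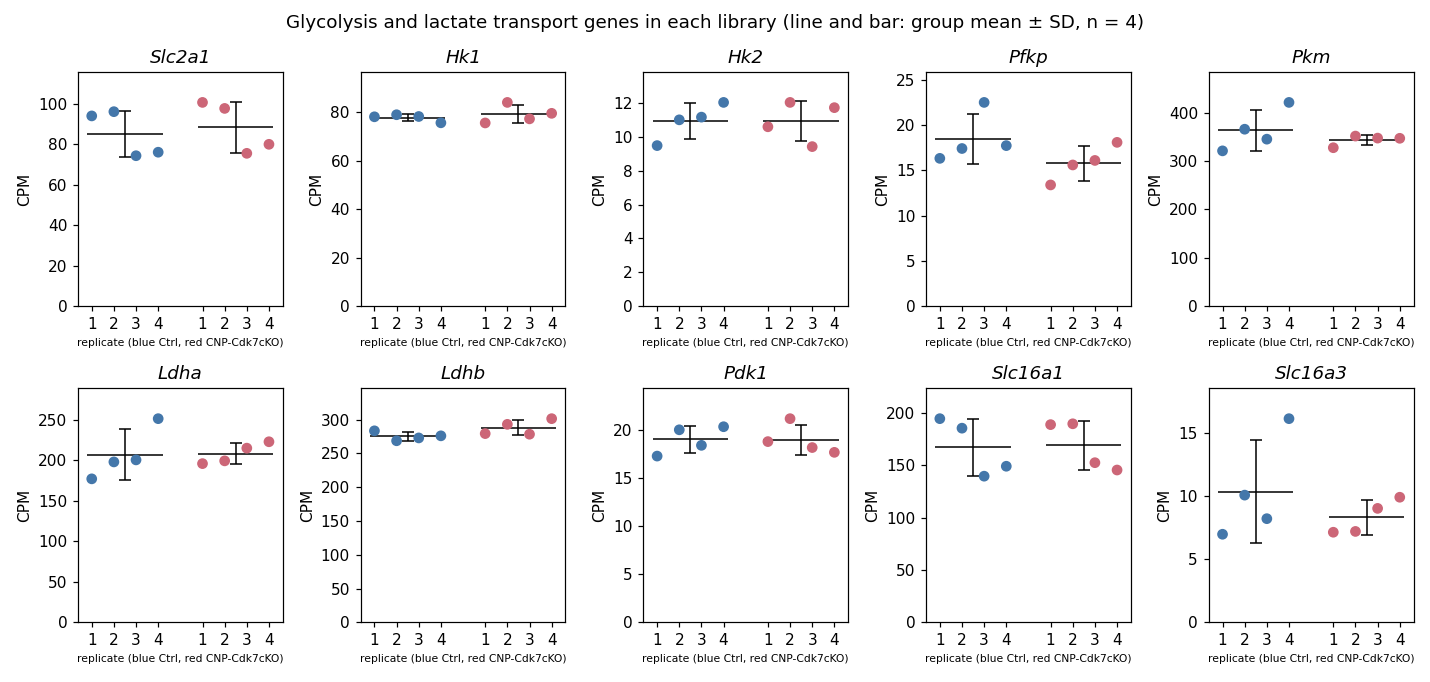
CPM, or counts scaled to a common library size (vertical axes from 0), of the 10 genes in each of the 8 libraries (horizontal axes, replicate number), Ctrl in blue and CNP-Cdk7cKO in red, with group mean and SD (n = 4). Values of the groups overlap in every panel; Slc2a1 and Slc16a1 are lower in libraries 3 and 4 of both groups, and Pkm, Ldha and Slc16a3 are highest in Ctrl 4.

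Some facts about the libraries stand beside all results below. Library totals lay between 16897242 and 21527891 estimated counts. Cdk7 measured 20.6 to 22.2 CPM (counts scaled to a common library size) in Ctrl and 9.62 to 12.7 CPM in CNP-Cdk7cKO, without overlap, and Cnp measured 2981 to 3312 CPM and 1314 to 1454 CPM. Xist, transcribed in females, was at 305 CPM in Ctrl 1 and at 281 to 331 CPM in all CNP-Cdk7cKO libraries, but at 0 to 0.10 CPM in Ctrl 2, 3 and 4, so sex differs between the groups. The 20 skeletal muscle markers summed to 574, 1796, 1289 and 5525 CPM in Ctrl 1 to 4 and to 281, 607, 109.5 and 195 CPM in CNP-Cdk7cKO 1 to 4 (two-sided exact permutation p = 0.0571, 0.157 adjusted over 11 marker and quality lists), and 19 of the 20 were lower by edgeR and 5 were called by limma-voom, with 0 at 0 in all libraries. Of 9 Schwann cell markers, all detected, 6 were lower and 0 higher in CNP-Cdk7cKO, and their sum went from between 97550 and 109400 CPM to between 69300 and 76920 CPM (two-sided exact permutation p = 0.0286, the lowest possible here, and 0.157 adjusted). Among fibroblast and macrophage markers 2 of 10 and 4 of 10 were higher and 0 lower. The share called over all tested genes was 11.7%. The fibroblast sum also did not overlap, at 39520 to 44870 CPM in Ctrl and 45300 to 51430 CPM in CNP-Cdk7cKO (two-sided exact permutation p = 0.0286, 0.157 adjusted). Most of this sum came from the collagens Col1a1, Col1a2 and Col3a1, with Ctrl means of 15700, 10750 and 13590 CPM. The other markers, named after their values were seen, were mixed. Log2 fold changes were 0.19 for Pdgfra, 0.21 for Dcn, 0.37 for Lum and 0.01 for Clec3b. Those of Dpt, Sfrp2 and Pi16 were -0.60, -0.55 and -0.16. The macrophage sum overlapped, at 404 to 519 CPM and 477 to 613 CPM. The 8 adipocyte markers summed to 51.7 to 181 CPM in Ctrl and 26.7 to 81.2 CPM in CNP-Cdk7cKO. Of 5 tested adipocyte markers only Car3, also highest in Ctrl 4, was called (72.3 ± 49.8 and 11.3 ± 6.36 CPM), while Adipoq, Plin1 and Fabp4 overlapped between the groups. In whole nerve, fewer cells of a type and less RNA per cell cannot be told apart. The part of cell composition, muscle transcripts and sex in the values below was not tested. Fits that add Xist or muscle levels are given below as a description, since they cannot separate sex or muscle content from genotype. Ctrl 1 was the only Xist-positive control, and CNP-Cdk7cKO 2 was the only knockout library whose muscle sum lay above that of any control.

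The promoters of the genes are shown for 3 members. Slc2a1 and Slc16a1 varied together across libraries, and a window of Ldha has the most matches to the searched motif when both strands are counted. Windows are the 250 bases before the RefSeq transcription start (build GRCm38.p6, 5′ to 3′ on the strand of the gene). Capitals mark ACGTG or GCGTG on either strand, the core to which hypoxia-inducible factors bind. Slc2a1 is given at chr4:119108495-119108744, Slc16a1 at chr3:104638414-104638663 and Ldha at chr7:46845554-46845803, all on the plus strand.
Slc2a1: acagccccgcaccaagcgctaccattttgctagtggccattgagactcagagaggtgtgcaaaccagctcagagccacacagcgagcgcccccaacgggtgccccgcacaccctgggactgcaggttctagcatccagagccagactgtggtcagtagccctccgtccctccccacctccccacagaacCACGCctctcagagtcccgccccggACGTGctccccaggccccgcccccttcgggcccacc
Slc16a1: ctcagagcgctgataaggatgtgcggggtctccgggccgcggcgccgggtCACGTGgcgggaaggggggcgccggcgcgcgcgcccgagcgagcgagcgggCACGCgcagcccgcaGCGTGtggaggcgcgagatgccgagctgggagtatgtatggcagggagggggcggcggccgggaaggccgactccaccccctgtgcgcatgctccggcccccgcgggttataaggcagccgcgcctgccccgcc
Ldha: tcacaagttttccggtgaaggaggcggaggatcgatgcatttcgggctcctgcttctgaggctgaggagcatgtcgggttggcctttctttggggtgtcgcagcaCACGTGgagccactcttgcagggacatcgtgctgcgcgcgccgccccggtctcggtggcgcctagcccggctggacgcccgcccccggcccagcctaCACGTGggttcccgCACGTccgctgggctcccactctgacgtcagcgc
Matches were counted on both strands, so a CACGTG, the palindrome bound by factors of the MYC and USF kind, counts once on each. The Slc2a1 window held 2 matches, the Slc16a1 window 4 with 1 CACGTG, and the Ldha window shown 5 with 2 CACGTG. Ldha has another window, at chr7:46846832-46847081, with 1 match. The 10 genes have 14 windows in the RefSeq table, of which 11 held either core, and each gene had it in at least 1 window. Over all 32851 windows of that length, 38.6% held either core and 6.0% held CACGTG. A match describes letters and is not evidence of binding.

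Glucose uptake is represented by Slc2a1, which encodes GLUT1, the transporter of basal glucose entry (chromosome 4, 119108711 to 119137983, GRCm38 with GENCODE M21). Slc2a1 was at 94.0, 96.1, 74.3 and 76.1 CPM in controls 1 to 4, against 100.7, 97.7, 75.5 and 79.98 CPM in knockouts 1 to 4. In each group the libraries numbered 1 and 2 were high and those numbered 3 and 4 low, and the groups overlapped almost completely. The means were 85.1 ± 11.5 and 88.5 ± 12.6 CPM (SD, n = 4), for a log2 difference of 0.06 ± 0.11 (SE, edgeR; adjusted p = 0.796), or 1.04-fold with a 95% interval from 0.88 to 1.23.

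The export of lactate showed the same division of libraries. Slc16a1 encodes MCT1, a proton-linked lactate transporter of glia, endothelium and perineurium (chromosome 3, 104638668 to 104658462). It was at 195, 186, 139.7 and 149 CPM in controls 1 to 4, against 189, 189.8, 153 and 146 CPM in knockouts 1 to 4, again high in libraries 1 and 2 and low in 3 and 4 of both groups. The means of 167 ± 26.95 and 169 ± 23.4 CPM gave a log2 fold change of 0.02 ± 0.12 (adjusted p = 0.946) and a 95% interval of the fold from 0.84 to 1.21. With Xist as a covariate the log2 fold change was -0.22 ± 0.17 (adjusted p = 0.589); Ctrl 1, the Xist-positive control, was the highest of the 8 libraries. The labels give no meaning to the shared replicate numbers. The 8 listed markers of perineurial cells summed to 663, 651, 557 and 533 CPM in Ctrl and to 599, 583, 574 and 538 CPM in CNP-Cdk7cKO. These sums were also higher in libraries 1 and 2 of each group, and 1 of the 8 stayed under 1 CPM in all libraries. Single markers, named after their values were seen, did not all follow this split. Itgb4 had the largest values, and Cldn1 was higher in libraries 1 and 2 of both groups. In CNP-Cdk7cKO, Ptch1 and Gli1 were highest in library 3, at 115.4 and 99.81 CPM. Whether perineurial content has a part in the spread of Slc2a1 and Slc16a1 was not tested.

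Slc16a3 encodes MCT4, the exporter typical of strongly glycolytic cells such as fast muscle fibres (chromosome 11, 120948480 to 120960868). Slc16a3 was the least abundant transporter of the 3 in raw counts, between 114 and 331 counts a library, and had the widest interval. It was at 6.98, 10.1, 8.21 and 16.1 CPM in controls 1 to 4, against 7.14, 7.20, 9.03 and 9.91 CPM in knockouts 1 to 4. Ctrl 4, the library with most muscle transcripts, stood above all others, and the remaining 7 values overlapped. The means were 10.35 ± 4.06 and 8.32 ± 1.38 CPM, for a log2 difference of -0.32 ± 0.23 (adjusted p = 0.422) with a fold interval from 0.56 to 1.14. Without Ctrl 4 it was -0.02, and adding the mean log2 level of the muscle markers to the model gave 0.32 ± 0.38 (adjusted p = 0.803).

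Hk1 and Hk2, hexokinase genes of the first step of glycolysis, were close to level. Hexokinase 1, the constitutive enzyme that traps glucose as glucose 6-phosphate, is encoded by Hk1 (chromosome 10, 62268855 to 62379908) and was the steadiest of the 10 genes among controls. Hk1 was at 78.2, 79.0, 78.3 and 75.7 CPM in controls 1 to 4, against 75.6, 84.1, 77.3 and 79.6 CPM in knockouts 1 to 4. The controls varied by 1.87% (coefficient of variation) and the knockout libraries by 4.64%, and the fold change was 1.02 with a 95% interval from 0.95 to 1.09 (log2 0.03 ± 0.05, edgeR quasi-likelihood adjusted p = 0.774). Hk2, the inducible, insulin-responsive hexokinase (chromosome 6, 82725025 to 82774454), was at 9.49, 11.0, 11.2 and 12.0 CPM in controls 1 to 4, against 10.6, 12.0, 9.43 and 11.7 CPM in knockouts 1 to 4. Its means of 10.9 ± 1.06 and 10.95 ± 1.19 CPM were nearly equal, and the interval ran from 0.85 to 1.18-fold (adjusted p = 0.998). With the muscle markers in the model the log2 fold change of Hk2 was 0.29 ± 0.17 (adjusted p = 0.552), and with Xist 0.21 ± 0.16 (adjusted p = 0.583). Antisense genes lie over both hexokinase genes (Hk1os and Gm17034) and over Slc2a1, Slc16a7 and Pdk2 in the annotation. The protein-coding Lrfn4 overlaps Pcx on the opposite strand. On the same strand Gm49759 overlaps Pkm, Mir1957a overlaps Slc2a1, and Gm43581 and Gm43585 overlap Slc16a1. The library kit preserves strand, and the sources used here do not say how counting treated strand.

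Pfkp encodes the platelet-type subunit of phosphofructokinase, the rate-setting enzyme of the pathway (chromosome 13, 6579768 to 6648777). Of the 10 genes it had the smallest p. It was at 16.3, 17.4, 22.5 and 17.75 CPM in controls 1 to 4, against 13.4, 15.6, 16.1 and 18.1 CPM in knockouts 1 to 4. CNP-Cdk7cKO 1, 2 and 3 lay below every control, and CNP-Cdk7cKO 4 lay above 3 of the controls. The means were 18.5 ± 2.74 and 15.8 ± 1.93 CPM, for a log2 difference of -0.23 ± 0.12 (unadjusted p = 0.0724, edgeR quasi-likelihood adjusted p = 0.238) with a fold interval from 0.71 to 1.02. With Xist as a covariate the value was -0.05 ± 0.18, and over all other settings it stayed between -0.30 and -0.05 without passing. In the annotation Pfkp overlaps Pitrm1 on the opposite strand.

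The last step of glycolysis and the lactate dehydrogenases were the most abundant of the set. Pkm encodes the muscle-type pyruvate kinase, whose splice forms PKM1 and PKM2 are summed here (chromosome 9, 59656368 to 59679375). It was at 321, 366, 345.5 and 422 CPM in controls 1 to 4, against 328, 352, 348 and 347 CPM in knockouts 1 to 4; Ctrl 4 was highest and Ctrl 1 lowest. The means were 364 ± 42.75 and 344 ± 10.8 CPM (log2 fold change -0.08 ± 0.07, adjusted p = 0.517, fold interval 0.85 to 1.06). The knockout libraries varied by 3.14% and the controls by 11.8%.

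Ldha encodes the subunit of lactate dehydrogenase that predominates where pyruvate is turned to lactate (chromosome 7, 46841475 to 46855627). Ldha was at 177, 198, 200.5 and 251 CPM in controls 1 to 4, against 196, 199, 215 and 223 CPM in knockouts 1 to 4. Ctrl 4 was again highest and Ctrl 1 lowest, and all knockout values lay between them. The means were 207 ± 31.6 and 208 ± 12.8 CPM (log2 fold change 0.01 ± 0.09, adjusted p = 0.96, fold interval 0.87 to 1.16). With the muscle markers in the model the value was 0.28 ± 0.14 (edgeR adjusted p = 0.467), and with Xist as a covariate 0.26 ± 0.12 (adjusted p = 0.34). Among Xist-positive libraries, a fit with Ctrl 1 as the sole control whose spread is taken from the knockouts, it was 0.23. Both Xist fits lean on Ctrl 1, the only Xist-positive control, so they are not separate checks. Annotated processed copies of Ldha took 1 and 8 counts over all libraries, too few to bear on it.

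Ldhb encodes the subunit that favours the use of lactate (chromosome 6, 142490249 to 142507957). It was at 283, 269, 273 and 276 CPM in controls 1 to 4, against 279, 293, 278 and 301 CPM in knockouts 1 to 4, a spread of 2.26% and 3.87%. Of the 10 genes Ldhb had the narrowest interval, from 0.98 to 1.12-fold (log2 0.07 ± 0.04, edgeR quasi-likelihood adjusted p = 0.351). Pdk1 encodes a pyruvate dehydrogenase kinase that phosphorylates pyruvate dehydrogenase and so restrains the turnover of pyruvate to acetyl-CoA, and it is a classic target of hypoxia-inducible factors (chromosome 2, 71873224 to 71903858). It was at 17.3, 20.1, 18.4 and 20.4 CPM in controls 1 to 4, against 18.8, 21.2, 18.2 and 17.7 CPM in knockouts 1 to 4. Its fold interval ran from 0.88 to 1.12 (log2 -0.01 ± 0.08, adjusted p = 0.976).

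Ratios of paired isoforms within a library do not depend on library scaling, and they are given as a description. The ratio of Hk2 to Hk1 counts was 0.121, 0.139, 0.143 and 0.159 in Ctrl and 0.14, 0.143, 0.122 and 0.147 in CNP-Cdk7cKO. The ratio of Ldha to Ldhb counts was 0.625, 0.737, 0.735 and 0.911 in Ctrl and 0.702, 0.681, 0.773 and 0.74 in CNP-Cdk7cKO. The ratio of Slc16a3 to Slc16a1 counts was 0.0358, 0.0543, 0.0588 and 0.108 in Ctrl and 0.0378, 0.038, 0.0592 and 0.0681 in CNP-Cdk7cKO. Ctrl 4 was highest and Ctrl 1 lowest in each of the 3 ratios, and the knockout libraries fell inside the control range.

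**Figure D2:**
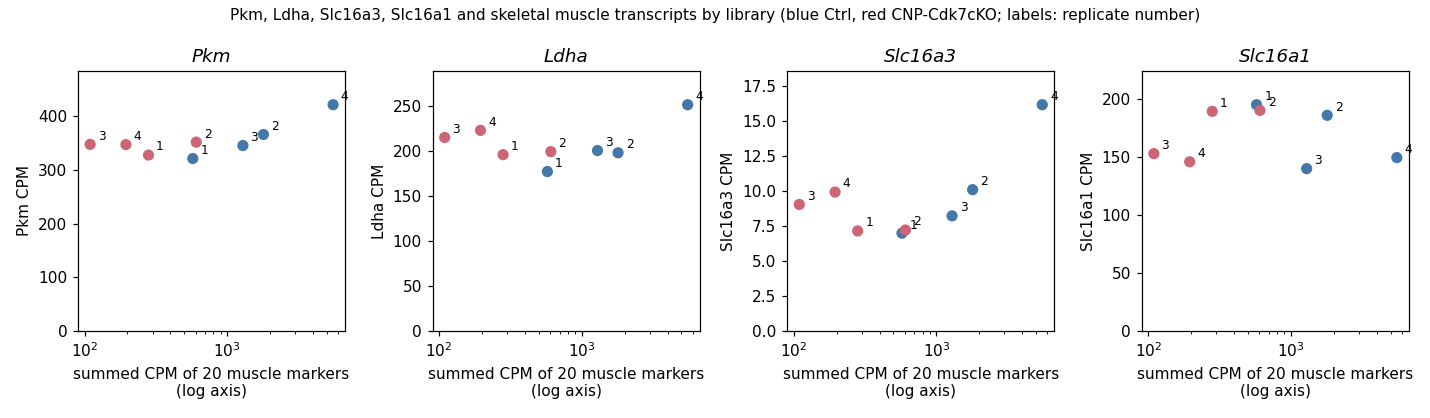
CPM of Pkm, Ldha, Slc16a3 and Slc16a1 (vertical axes, from 0) against the summed CPM of 20 skeletal muscle markers (horizontal axes, logarithmic) in the 8 libraries, Ctrl in blue and CNP-Cdk7cKO in red, labelled by replicate number. Ctrl 4, with 5525 CPM of muscle markers, has the highest Pkm, Ldha and Slc16a3, while Slc16a1 is split by replicate number in both groups.

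Levels were compared between genes as CPM per kilobase of merged exons, a scale that allows roughly for differences in exon length. In Ctrl, Ldhb was highest with 175 ± 3.95 CPM per kilobase, followed by Pkm with 72.7 ± 8.55 and Ldha with 62.5 ± 9.54. Slc16a1 with 37.8 ± 6.09, Slc2a1 with 24.3 ± 3.29 and Hk1 with 9.12 ± 0.17 CPM per kilobase followed. At the low end stood Pdk1 with 2.45 ± 0.184, Slc16a3 with 1.95 ± 0.764, Hk2 with 1.83 ± 0.178 and Pfkp with 1.38 ± 0.205 CPM per kilobase. Over the 8 libraries the ranges of Pkm (64.3 to 84.3) and Ldha (53.5 to 76.0) overlapped, as did those of Pdk1 (2.23 to 2.73), Slc16a3 (1.31 to 3.03) and Hk2 (1.58 to 2.02), and those of Hk2 and Pfkp (1.0 to 1.68); the other neighbours in the order did not overlap. Merged exons count every annotated exon, 13.4 kilobases for Pfkp against 1.57 for Ldhb, so genes with many annotated ends are placed too low. The order of the means was the same in CNP-Cdk7cKO except that Hk2, at 1.83, came before Slc16a3, at 1.56 CPM per kilobase.

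Around these 10 genes, members of the same pathways did pass the test. Of 15 tested genes among 18 other glycolytic enzymes, 1 was higher and 2 were lower (median log2 fold change -0.09). By comparison, 11.7% of all tested genes were called in either direction. Whether this list holds more called genes than that share was not tested. Pgam1, the phosphoglycerate mutase of most tissues, rose from 133.6 ± 1.16 to 169.7 ± 8.26 CPM (0.34 ± 0.04 on the log2 scale, edgeR adjusted p = 0.000952), and all 4 knockout values were above the controls. Pfkm, the muscle phosphofructokinase subunit, fell from 96.7 ± 24.2 to 64.85 ± 3.93 CPM (-0.58 ± 0.14, adjusted p = 0.0203), and Pgam2, the muscle phosphoglycerate mutase, from 22.5 ± 20.4 to 3.06 ± 2.09 CPM (-2.87 ± 0.65, adjusted p = 0.0161). Both were highest in Ctrl 4. Neither Pgam2 nor Pdk4, described further on, passed by limma-voom (adjusted p = 0.0738 and 0.0681). With the muscle markers in the model Pgam2 was at -0.30 and Pfkm at 0.01, a change of sign, and Pgam1 stayed at 0.33 (adjusted p = 0.109). With Xist in the model Pgam2 was at -0.83 (adjusted p = 0.684), Pfkm at -0.24 (0.572) and Pgam1 at 0.33 (0.0616), so none of the 3 passed in either fit. The fall of Pfkm did not pass without CNP-Cdk7cKO 1 or 3 (adjusted p = 0.0568 and 0.0561), nor that of Pgam2 without CNP-Cdk7cKO 1 or 4 (0.0509 and 0.0511).

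Among other genes of glucose and monocarboxylate transport and lactate conversion, 1 of 12 tested genes was higher and 2 were lower, of 17 listed. The share called was 25.0%, against 11.7% of all tested genes. Bsg encodes basigin, the chaperone that brings MCT1 and MCT4 to the cell surface. It was at 501, 489.8, 476 and 478 CPM in controls 1 to 4, against 582, 609, 554 and 609.6 CPM in knockouts 1 to 4, so that every knockout library lay above every control. The log2 fold change was 0.28 ± 0.04 (adjusted p = 0.00245), and it passed whichever library was left out; with Xist as a covariate it was 0.23 (adjusted p = 0.135), and with the muscle markers 0.26 (0.186). Slc16a7, the gene of the high-affinity transporter MCT2, was at 6.49, 6.62, 5.02 and 4.93 CPM in controls 1 to 4, against 2.85, 2.61, 4.29 and 2.70 CPM in knockouts 1 to 4, again without overlap (-0.89 ± 0.19, adjusted p = 0.0131), and it too passed whichever library was left out. With Xist as a covariate its value was -1.07 (adjusted p = 0.101), and with the muscle markers -1.43 (0.0411). Slc2a4, the insulin-responsive GLUT4 of muscle and fat, fell from 11.6 ± 5.38 to 5.66 ± 0.195 CPM (-1.04 ± 0.26, adjusted p = 0.0257). It was highest in Ctrl 4 at 19.2 CPM, was at 0.0032 with the muscle markers and at -0.16 with Xist in the model (adjusted p = 0.998 and 0.845), and did not pass without Ctrl 2 or any 1 of the CNP-Cdk7cKO libraries (adjusted p from 0.054 to 0.0682).

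**Figure D3:**
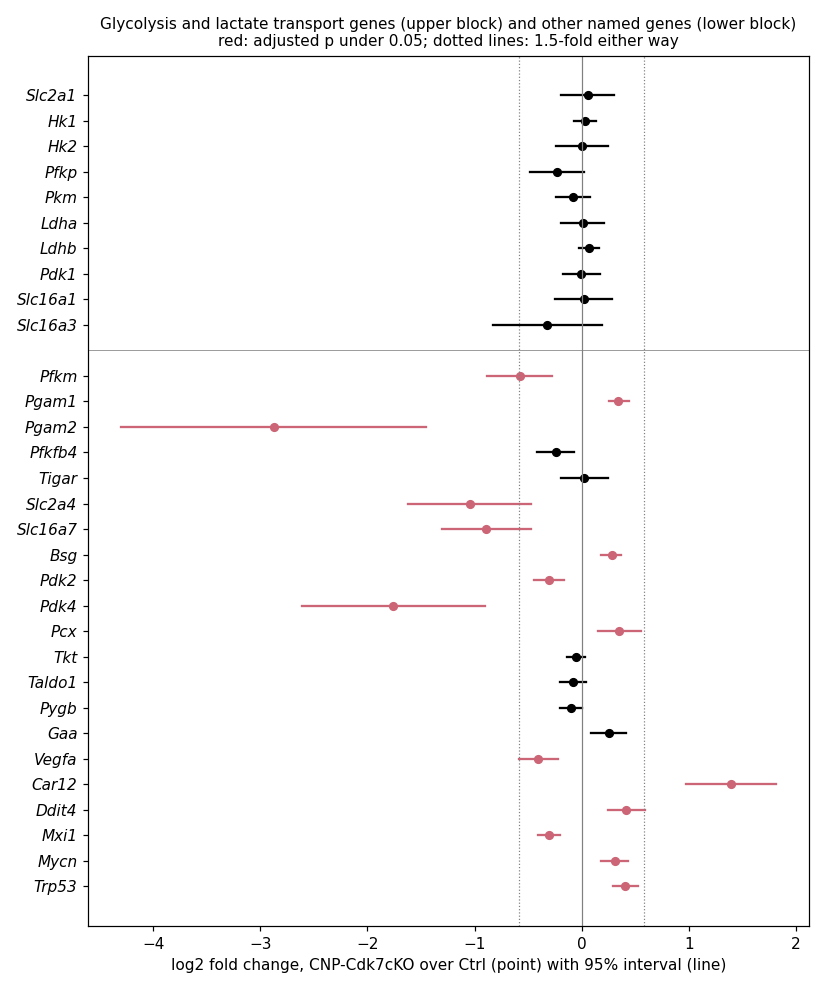
Log2 fold change of CNP-Cdk7cKO over Ctrl (horizontal axis) with its 95% interval for the 10 glycolysis and lactate transport genes (upper block) and for other named genes of the surrounding pathways (lower block), red where the adjusted p is under 0.05. The 10 genes lie between -0.32 and 0.07 and 9 of their intervals stay inside the dotted 1.5-fold lines, while Pgam1 and Bsg lie to the right of 0 and Slc16a7 to the left.

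At the entry of pyruvate into mitochondria, 1 of 14 genes was higher and 2 were lower (median log2 fold change -0.11). The share called was 21.4%, against 11.7% of all tested genes. Pdk2, a sister kinase of Pdk1, fell from 61.0 ± 4.86 to 49.3 ± 2.58 CPM (-0.31 ± 0.06, adjusted p = 0.0108). Pdk4, the kinase induced by fasting in muscle and fat, fell from 10.2 ± 6.45 to 3.03 ± 0.626 CPM (-1.76 ± 0.39, adjusted p = 0.015) and was highest in Ctrl 4, at 18.9 CPM. With the muscle markers in the model they measured -0.14 and -0.06 (adjusted p = 0.661 and 0.973), and with Xist -0.25 and -0.81 (adjusted p = 0.274 and 0.515). Pcx, the pyruvate carboxylase that feeds oxaloacetate to lipid and glucose synthesis, rose from 43.6 ± 4.92 to 55.5 ± 5.91 CPM (0.35 ± 0.09, adjusted p = 0.0311). The rise of Pcx did not pass without Ctrl 2, 3 or 4 or without CNP-Cdk7cKO 1, 2 or 4 (adjusted p from 0.0578 to 0.0915), and its value was 0.12 with Xist and 0.29 with the muscle markers in the model (adjusted p = 0.684 and 0.528). Whether Pdk1 and Pdk2 differ from each other in their change was not tested.

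In the branches of the pathway 0 genes passed in the fit reported here, against 11.7% of all tested genes, and a few lay near the threshold. In the pentose phosphate pathway 0 of 7 passed, 1 at an unadjusted p under 0.05 and 0 by DESeq2 or limma-voom; its most abundant enzyme, transketolase (Tkt), measured 483 ± 12.85 and 466 ± 12.35 CPM. Of 5 genes that set fructose 2,6-bisphosphate, the activator of phosphofructokinase, 0 passed, 1 at an unadjusted p under 0.05 and 0 by either other tool. Pfkfb4, a kinase that makes the compound, was at 19.4, 19.5, 17.04 and 18.5 CPM in controls 1 to 4 and 16.8, 14.45, 14.8 and 16.8 CPM in knockouts 1 to 4, without overlap (-0.24 ± 0.08, unadjusted p = 0.00963, edgeR quasi-likelihood adjusted p = 0.0691). Tigar, a phosphatase of that compound and a p53 target, measured 11.5 ± 0.971 and 11.7 ± 1.08 CPM. In glycogen metabolism 0 of 11 passed, 3 at an unadjusted p under 0.05 and 1 each by DESeq2 and limma-voom. The gene called by these tools was Gaa, the lysosomal glucosidase, at a log2 fold change of 0.25 (adjusted p = 0.0504 by edgeR's quasi-likelihood test, 0.0119 by DESeq2 and 0.0251 by limma-voom). Gaa also passed by edgeR under both other count filters, with the replicate block, and when Ctrl 1 or CNP-Cdk7cKO 3 was left out (adjusted p from 0.0147 to 0.0482), and was at 0.08 with Xist in the model (adjusted p = 0.757). Other edgeR settings called 1 glycogen gene lower (no count filter, the replicate block, or without Ctrl 1 or 3) and 1 pentose phosphate gene higher (the 1 CPM filter, or without CNP-Cdk7cKO 2). In the reported fit the genes of these lists nearest the threshold in those directions, named after their values were seen, were the muscle phosphorylase gene Pygm (-1.36 ± 0.43, adjusted p = 0.0655) and the lactonase gene Pgls (0.15 ± 0.05, adjusted p = 0.0515).

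The regulators were mixed. Of 23 tested hypoxia-inducible factors and targets, 2 were higher and 3 lower, a share of 21.7% against 11.7% of all tested genes. Their median log2 fold change was -0.03. Car12, a carbonic anhydrase at the cell surface, rose from 1.66 ± 0.217 to 4.39 ± 0.875 CPM (1.39 ± 0.19, adjusted p = 0.00141), and Ddit4, a stress-induced inhibitor of mTORC1, from 35.6 ± 4.38 to 47.3 ± 1.18 CPM (0.41 ± 0.08, adjusted p = 0.00701). Vegfa, the vascular growth factor, fell from 36 ± 4.70 to 27.2 ± 0.991 CPM (-0.41 ± 0.08, adjusted p = 0.0115), and the MYC antagonist Mxi1 from 69.65 ± 1.69 to 56.3 ± 2.48 CPM (-0.31 ± 0.05, adjusted p = 0.00236). The third fall was in the mitophagy receptor gene Bnip3l (-0.24, adjusted p = 0.0128; named after its value was seen). Of 18 growth and energy regulators 2 passed, a share of 11.1% against 11.7% of all tested genes, and both were higher: Trp53, the gene of p53, from 77.45 ± 1.03 to 102.3 ± 7.02 CPM (0.40 ± 0.05, adjusted p = 0.000991) and Mycn, a MYC family factor, from 27.1 ± 0.768 to 33.6 ± 2.01 CPM (0.31 ± 0.06, adjusted p = 0.00571). Of the 6 genes of these lists named by the rule, Car12 alone passed when Xist or the muscle markers entered the model (adjusted p = 0.0477 and 0.0137), and all 6 kept their sign there. Among Xist-positive libraries Car12 did not pass (1.63, adjusted p = 0.0902).

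**Figure D4:**
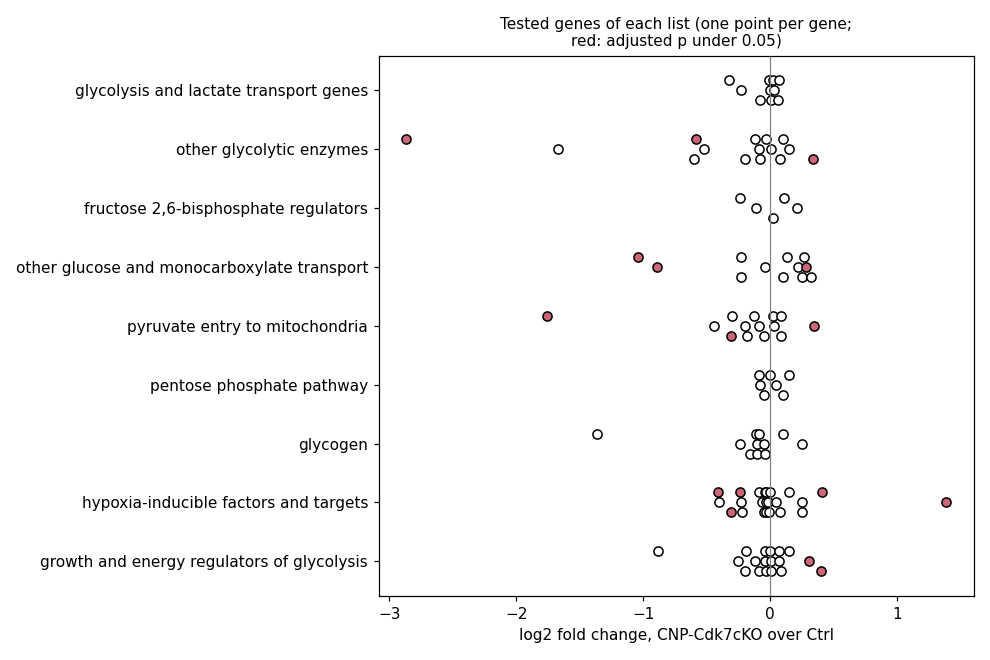
Log2 fold change of CNP-Cdk7cKO over Ctrl (horizontal axis) of every tested gene of the 10 glycolysis and lactate transport genes and 8 surrounding lists (vertical axis), 1 point per gene, red where the adjusted p is under 0.05. The row of the 10 genes has no red point and runs from -0.32 to 0.07; the far left points in other rows are the muscle-rich genes Pgam2 (-2.87) and Pdk4 (-1.76).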

How the data were processed

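RNA from sciatic nerves was extracted with a column kit and DNase, and libraries of polyadenylated RNA were made from 250 ng with a kit that keeps strand, per the labels. The authors deposited estimated counts per gene, made with STAR and Salmon on GRCm38 per the submitters' processing notes; the sources used here give no versions, settings or annotation release. Of the deposited values 8.29% were not whole and were rounded. Of 55487 identifiers, 55141 matched a symbol. Depth was 16897242 to 21527891 counts a library, and the 10 genes had from 114 to 8646 counts a library.

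The filterByExpr function kept 15056 genes (count minimum 10, total minimum 15). TMM factors scaled the libraries, and all 8 entered 1 quasi-likelihood fit (edgeR 4.0.16, limma 3.58.1 and DESeq2 1.42.0 under R 4.3.3). Calls are at 0.05 after Benjamini-Hochberg adjustment over the tested genes. Standard errors come from the F statistic, and 95% intervals from the t distribution with its degrees of freedom. Gene positions and exon lengths are from GENCODE M21 (GRCm38), promoters from RefSeq. The steps were tested on simulated counts.

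The 10 genes and all lists were chosen with earlier results of these data known. The rule named all 10 genes, Cdk7 and Cnp, and from each list of pathway genes up to 4 called genes with the smallest p, or the 2 most abundant where none was called; genes outside it are marked. The alternatives tried were other scaling (RLE, or TMM leaving out genes of muscle, red cells, fat and mitochondria), other count filters, DESeq2, limma-voom, a replicate block, muscle or Xist covariates, Xist-positive libraries alone, and each library left out.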

Additional observations from a re-analysis of the deposited data

Results flagged for a closer look

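None of the 10 glycolysis and lactate transport genes had a library that stood apart from the other 3 of its group in the gap test used (gap to the nearest library over the range of the group). Of 62 groups tested over 31 named genes, 3 did, about what chance gives at 1 in 20 groups. Pgam1 in Ctrl 1, at 135.3 CPM, stood above the other controls (132.9 to 133.2 CPM). Slc16a7 in CNP-Cdk7cKO 3, at 4.29 CPM, stood above the other knockout libraries (2.61 to 2.85 CPM). Vegfa in CNP-Cdk7cKO 1, at 25.7 CPM, stood below the others (27.6 to 27.8 CPM).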

How the results depend on the processing

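In all 18 alternatives 0 of the 10 genes were called higher and 0 lower, with smallest adjusted p-values from 0.113 (limma-voom) to 0.467 (muscle covariate). Over all tested genes the calls, 763 higher and 994 lower, fell to 78 and 108 with the muscle covariate, to 76 and 167 with the Xist covariate and to 37 and 77 in the female libraries alone, and to 470 to 655 higher and 653 to 860 lower with 1 library left out, so these fits call fewer genes of any kind.

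No value of the 10 genes that changed sign passed the test under any setting. The widest such change was that of Slc16a3, from -0.32 to 0.32. With the muscle covariate, the Xist covariate and the female libraries alone, the log2 fold changes were -0.01, -0.10 and -0.09 for Slc2a1, 0.29, 0.21 and 0.20 for Hk2, 0.15, 0.11 and 0.09 for Pkm, 0.21, 0.13 and 0.13 for Pdk1, -0.09, -0.22 and -0.20 for Slc16a1, and 0.32, 0.32 and 0.25 for Slc16a3. Hk2 was at -0.0018 with RLE factors, -0.0029 by DESeq2, -0.01 by limma-voom and -0.00013 with the replicate block, and Pdk1 at 0.01 by limma-voom. Pfkm and Slc2a4 went to 0.01 and 0.0032 with the muscle covariate. Leaving out each library gave -0.01 to 0.13 for Slc2a1, -0.0044 to 0.05 for Hk1, -0.06 to 0.07 for Hk2, -0.06 to 0.12 for Ldha, -0.06 to 0.03 for Pdk1, -0.06 to 0.10 for Slc16a1 and -0.02 to 0.08 for Tigar. The cause of these changes was not tested. Fits with the Xist covariate and with the female libraries alone both lean on Ctrl 1, the only Xist-positive control, and are not separate checks.

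Libraries with the same replicate number did not deviate together throughout: correlations over 9628 genes were -0.0203, 0.277, 0.448 and 0.0345. For numbers 2 and 3 these exceeded the highest correlation with another number (0.0788 and -1.53e-06). For numbers 1 and 4 they did not (0.194 and 0.321). The labels give no meaning to the numbers, and the main fit did not take them as pairs. The replicate block called 682 genes higher and 926 lower, 0 of the 10 genes among them. Under it the standard errors of Slc2a1 and Slc16a1 were 0.04 and 0.05, against 0.11 and 0.12.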

Other observations

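CNP-Cdk7cKO 4 had lower values of some genes beside the glycolytic set, named here after their values were seen. Hif1a, the oxygen-regulated factor that drives many glycolytic genes, was at 61.2, 57.65, 57.2 and 56.95 CPM in controls 1 to 4, against 54.8, 56.9, 55.9 and 31.7 CPM in knockouts 1 to 4. In that library Slc2a1, Hk1, Hk2, Pfkp, Pkm, Ldha, Pdk1, Slc16a1 and Slc16a3 lay inside the range of the other 7 libraries. Ldhb, at 301 CPM there, lay above its range in the others (269 to 293 CPM). Whether the Hif1a level has a part in these values was not tested. The mitochondrial transcript mt-Atp8 was at 290 CPM there and at 674 to 815 CPM in the other libraries. Hif1a had a log2 fold change of -0.23 ± 0.15 (edgeR adjusted p = 0.374).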
